A study of Danio rerio with 14 samples.

Results

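Glycolysis begins when a hexokinase traps glucose in the cell as glucose 6-phosphate and ends with pyruvate, which can be turned into lactate. The 6 genes of this pathway described here, of 19859 genes measured, are the hexokinases *hk2* (ENSDARG00000101482) and *gck* (ENSDARG00000068006), the regulator *pfkfb3* (ENSDARG00000001953), and the lower-pathway enzymes *aldoca* (ENSDARG00000057661), *gapdh* (ENSDARG00000043457) and *eno1b* (ENSDARG00000013750). They were chosen by their differences between chmru848 and wt retinas, so these differences are described without a test, and the tests below concern measures that did not choose them.

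RNA of retinas, with the RPE left on, was sequenced from 2 groups of zebrafish larvae aged 5 days post fertilisation (dpf), 7 of the chmru848 line and 7 wt of the AB strain. The chmru848 line lacks functional rep1, the protein that presents Rab GTPases for prenylation, and is a model of choroideremia, a degeneration of photoreceptors, RPE and choroid. The whole animal carries the mutation and the mutant eye degenerates at this age, so a retina of this line is not one in which a single cell type is affected. Each retina sample came from a separate zebrafish by the study's account, and its cDNA was amplified with the SMART-Seq v4 kit for low RNA input.

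Photoreceptors of vertebrates are known for running glycolysis to lactate even when oxygen is present. Flux is set mainly at entry, by the hexokinases, and at phosphofructokinase, which is activated by fructose 2,6-bisphosphate, the product of the PFKFB enzymes. Aldolase, GAPDH and enolase act below these control points, and the zebrafish genome carries several of their genes as paralog pairs.

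The deposited log2 values start at 4.35, which is a gene with no count, and changes in weakly expressed genes appear smaller than they are on this scale. They were turned back into normalized counts, and both scales are given. Genes with no count numbered 369 to 1983 per chmru848 retina (median 760), most in replicate 1, and 317 to 628 per wt retina (median 450), while the estimated depth was 14.3 to 29.4 mega (M) reads in chmru848 retinas and 18.0 to 26.3 M reads in wt retinas. RNA of the mutated gene itself, CHM (ENSDARG00000003845), had a median of 282 normalized counts (216 to 492) in chmru848 retinas and of 355 (264 to 432) in wt retinas (adjusted p = 0.358, limma), so its level does not serve as a check of the labels. Markers of rods did separate the genotypes: 6 of 6 genes were lower, and their summed level was 2931 to 6738 normalized counts in chmru848 retinas and 29472 to 75634 in wt retinas. Over the 19751 genes tested with limma, 19.9% were higher and 23.7% were lower in chmru848 retinas at an adjusted p threshold of 0.05. The genotypes did not overlap, with chmru848 retinas above, in 7.57% of genes, and with chmru848 retinas below in 7.98%. In whole retinas, fewer cells of a type and less RNA per cell cannot be told apart.

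Of the 6 genes, *hk2*, *gck* and *pfkfb3* had higher values in all 7 chmru848 retinas than in any wt retina, and *gapdh* had lower values in all 7. *aldoca* was mostly higher and *eno1b* mostly lower, both with overlap. The median difference of the 6 genes was 1.74 on the deposited log2 scale, with a range of -2.27 to 3.13, and that of all genes tested was -0.06. Nothing is read from these counts, because the same contrast chose the genes.

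**Figure D1:**
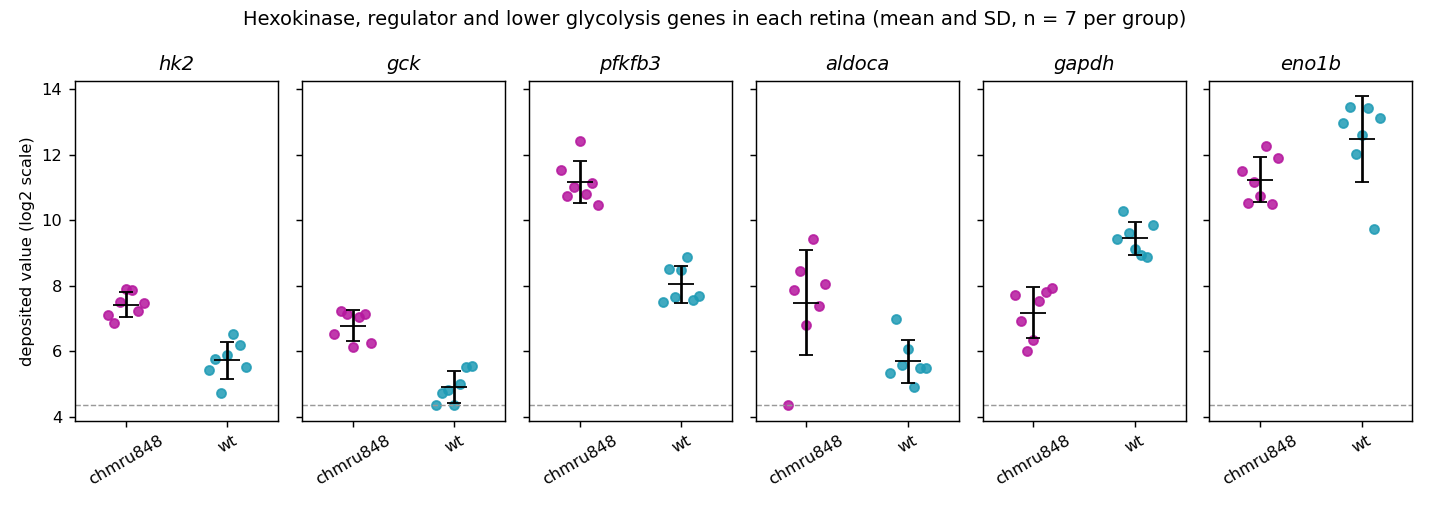
Deposited values (log2 scale) of the 6 genes in each retina, chmru848 left of wt in each panel, with the group mean and SD (n = 7 per group) as a bar, and with a broken line at 4.35, the value of a gene with no count. *hk2*, *gck*, *pfkfb3* and *gapdh* have no overlap between genotypes, 1 chmru848 retina lies on the broken line for *aldoca*, and 1 wt retina lies far below the others for *eno1b*.

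*hk2*, a hexokinase that binds to mitochondria and is the photoreceptor isoform in mammals, had a lowest value of 80.1, a median of 138 and a highest value of 198 normalized counts in chmru848 retinas, against 1.46, 21.2 and 54.8 in wt retinas. The groups did not overlap, while 1 wt retina (replicate 3) was at or under 3 reads, the floor below which a gene was not taken as seen. The means were 137 ± 45.2 normalized counts in chmru848 retinas and 23.8 ± 17.9 in wt retinas (SD, n = 7 each), a 5.77-fold difference, or 1.70 log2 units as deposited (SE 0.26). The coefficient of variation of *hk2* was 32.9% in chmru848 retinas and 75.1% in wt retinas. On the deposited log2 scale the mean absolute deviation from the group median was 0.30 in chmru848 retinas and 0.42 in wt retinas, which did not pass an exact permutation test (p = 0.464, adjusted p = 0.929 over the 6 genes).

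*gck* encodes glucokinase, a hexokinase of low glucose affinity that in mammals acts as the glucose sensor of liver and pancreatic islets. It had a lowest value of 34.9, a median of 94.3 and a highest value of 111 normalized counts in chmru848 retinas, against 0, 2.20 and 14.96 in wt retinas. The gene was clearly seen in all chmru848 retinas, whereas 4 of 7 wt retinas were at or under 3 reads, 2 of them at 0, and only wt replicates 6 and 7 exceeded 10 normalized counts. The means were 77.8 ± 32.7 in chmru848 retinas and 5.27 ± 6.56 in wt retinas (SD, n = 7 each), which differ by 1.88 log2 units as deposited (SE 0.25) and by 3.76 as the log2 ratio of mean normalized counts. Of liver, where *gck* is known to act, 3 markers were matched, and all 3 were lower, where 23.7% of all genes were lower. Their summed level was 12.7 to 429 normalized counts in chmru848 retinas and 111 to 1521 in wt retinas. The marker *fabp10a* lay near the floor in chmru848 retinas, and it was at 0 in 3 chmru848 and 2 wt retinas. No liver marker was at 0 in all retinas of a genotype, and the part of liver tissue in the *gck* values was not tested.

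The third hexokinase gene that could be matched, HK1 (ENSDARG00000039452), is the form found in most cells. It was also higher, with 2508 ± 539 normalized counts in chmru848 retinas and 1583 ± 626 in wt retinas (log2 difference 0.72, SE 0.24, adjusted p = 0.0198, limma), with overlap. Since *HK1* held most of the reads of the 3 genes in both genotypes, their sum moved less than *hk2* or *gck* alone: it was 2723 ± 526 normalized counts in chmru848 retinas and 1612 ± 640 in wt retinas (SD, n = 7 each). The share of *hk2* in these reads had a median of 5.47% (2.84% to 9.50%) in chmru848 retinas and of 1.502% (0.203% to 3.05%) in wt retinas. The share of *gck* had a median of 2.78% (1.21% to 4.66%) in chmru848 retinas and of 0.225% (0% to 0.657%) in wt retinas. These are shares of reads, not corrected for transcript length.

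*pfkfb3* had the largest difference of the 6 genes on the deposited log2 scale. Its product makes fructose 2,6-bisphosphate with little of the opposing phosphatase activity, and in mammals it is a PFKFB form induced by hypoxia and inflammatory signals. The gene had a lowest value of 1379, a median of 2048 and a highest value of 5471 normalized counts in chmru848 retinas, against 144, 168 and 430.0 in wt retinas. The lowest chmru848 retina (replicate 7) was above the highest wt retina (replicate 5), and chmru848 replicate 4 stood highest. The means were 2498 ± 1402 in chmru848 retinas and 241 ± 113 in wt retinas (SD, n = 7 each), a 10.3-fold difference, or 3.13 log2 units as deposited (SE 0.29).

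The other PFKFB genes, which make or break down the same regulator, had smaller differences. *pfkfb1*, *pfkfb2a*, *pfkfb4a*, PFKFB2 (ENSDARG00000002037) and PFKFB4 (ENSDARG00000029075) had differences of -0.49 to 0.23 on the deposited log2 scale, and none passed the threshold (adjusted p = 0.240 to 0.961, limma). Leukocyte markers were measured beside *pfkfb3*. The neutrophil gene *lyz*, the only matched marker of 2, was higher, with 62.3 to 464 normalized counts in chmru848 retinas and 2.09 to 22.9 in wt retinas. Of the microglia and macrophage markers, 2 of 5 were matched and neither passed the threshold. Their summed level was 14634 to 69721 normalized counts in chmru848 retinas and 8602 to 39394 in wt retinas. This sum was nearly all *apoeb*, with 32282 ± 23663 normalized counts in chmru848 retinas and 16311 ± 10788 in wt retinas. The other marker, *csf1ra*, lay near the floor (9.77 ± 9.32 and 7.02 ± 5.69), at 0 in 2 chmru848 retinas and 1 wt retina. No matched marker of either list was at 0 in all retinas of a genotype, and the part of these cells in the *pfkfb3* values was not tested.

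*aldoca* encodes an aldolase C, the brain-type enzyme that splits fructose 1,6-bisphosphate. It had a lowest value of 0, a median of 196 and a highest value of 647 normalized counts in chmru848 retinas, against 3.15, 13.3 and 88.7 in wt retinas. In all, 5 of 7 chmru848 retinas lay above every wt retina, chmru848 replicate 4 (74.1) lay below wt replicate 2 only, and chmru848 replicate 1 had no read, less than any wt retina. The means were 226 ± 212 in chmru848 retinas and 25.1 ± 29.4 in wt retinas (SD, n = 7 each), which differ by 1.79 log2 units as deposited (SE 0.55) and by 2.31 without chmru848 replicate 1. In that retina a count of 0 allows up to 3.42 normalized counts (3 reads, counting error only), and it is also the retina with the most genes at 0. The mean absolute deviation from the group median was 1.06 in chmru848 retinas and 0.41 in wt retinas on the deposited log2 scale, a gap of 0.65 that did not pass the exact permutation test (p = 0.216, adjusted p = 0.929). Without chmru848 replicate 1 the gap was 0.24, so most of it rests on that retina.

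The paralog named ALDOC (ENSDARG00000019702) went the other way and held nearly all reads of the pair. It had 14773 ± 6617 normalized counts in chmru848 retinas and 24051 ± 5538 in wt retinas (log2 difference -0.76, SE 0.24, adjusted p = 0.0147, limma). *aldoca* made up a median of 1.47% (0% to 3.05%) of the reads of both genes in chmru848 retinas and of 0.0667% (0.0092% to 0.366%) in wt retinas. The summed aldolase genes had 19976 ± 8042 normalized counts in chmru848 retinas and 31687 ± 5945 in wt retinas (SD, n = 7 each), so the higher *aldoca* was small against the total of its step. Reads that fit several genes were split by RSEM, so a part of the reads of one paralog could have been given to the other.

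*gapdh*, whose product oxidises glyceraldehyde 3-phosphate and makes NADH, and which is often taken as a reference gene in RT-qPCR, had a lowest value of 29.4, a median of 145 and a highest value of 206 normalized counts in chmru848 retinas, against 427, 649 and 1194 in wt retinas. Every chmru848 retina lay below every wt retina, with chmru848 replicates 3 and 4 lowest. The means were 124 ± 70.3 in chmru848 retinas and 696 ± 276 in wt retinas (SD, n = 7 each), so the level was 5.62-fold higher in wt, and the deposited log2 values differed by -2.27 (SE 0.31). The related gene GAPDHS (ENSDARG00000039914) held nearly all reads of the step, with 42517 ± 27591 normalized counts in chmru848 retinas and 76155 ± 28233 in wt retinas (log2 difference -0.97, SE 0.37, adjusted p = 0.0399, limma). That call was lost in 13 of 26 alternatives, 10 of them with 1 retina left out (chmru848 replicates 1, 2, 3, 4 and 6 and wt replicates 1, 2, 3, 5 and 7). *gapdh* made up a median of 0.251% (0.0993% to 0.604%) of the reads of both genes in chmru848 retinas and of 1.03% (0.410% to 1.57%) in wt retinas.

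*eno1b* encodes an enolase of the alpha type, which makes phosphoenolpyruvate. It had a lowest value of 1399, a median of 2264 and a highest value of 4854 normalized counts in chmru848 retinas, against 810.4, 7939 and 11234 in wt retinas. In all, 5 of 7 wt retinas were above every chmru848 retina, wt replicate 3 (4101) lay below chmru848 replicate 5 only, and wt replicate 6 (810.4) lay below every chmru848 retina. The means were 2614 ± 1305 in chmru848 retinas and 7155 ± 3770 in wt retinas (SD, n = 7 each), with a difference in deposited log2 values of -1.24 (SE 0.47). Without wt replicate 6 the wt mean was 8212 ± 2769 (n = 6) and the difference was -1.70. The paralog ENO1 (ENSDARG00000022456) had 15512 ± 3122 normalized counts in chmru848 retinas and 22795 ± 6582 in wt retinas and did not pass the threshold (difference -0.52, adjusted p = 0.0606, limma). *eno1b* made up a median of 16.5% (6.17% to 23.4%) of the reads of both in chmru848 retinas and of 25.2% (2.52% to 42.5%) in wt retinas.

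The balance between the top and the bottom of the pathway was then described for each retina. The mean deviation of *hk2*, *gck* and *pfkfb3* from their own means over all 14 retinas was 0.72 to 1.48 log2 units in chmru848 retinas and -1.60 to -0.55 in wt retinas. *aldoca*, also a lower-pathway enzyme, was kept apart, because it lay on the side of the hexokinases. Its median deviation was 1.29 (-2.23 to 2.84) in chmru848 retinas and -1.10 (-1.67 to 0.40) in wt retinas. The mean deviation of *gapdh* and *eno1b* was -1.53 to -0.17 in chmru848 retinas and -0.78 to 1.78 in wt retinas, where only replicate 6 was below 0. The first minus the second was 0.89 to 3.01 (median 2.11) in chmru848 retinas and -2.79 to -0.13 (median -2.33) in wt retinas. The genes chosen fix most of this gap, and leaving *aldoca* out of the lower enzymes widens it between the genotypes, so it gets no test. Among wt retinas, replicate 6 lay nearest to the chmru848 retinas, with the lowest mean deviation of *gapdh* and *eno1b* and, after replicate 5, the highest of *hk2*, *gck* and *pfkfb3* (-0.91).

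**Figure D2:**
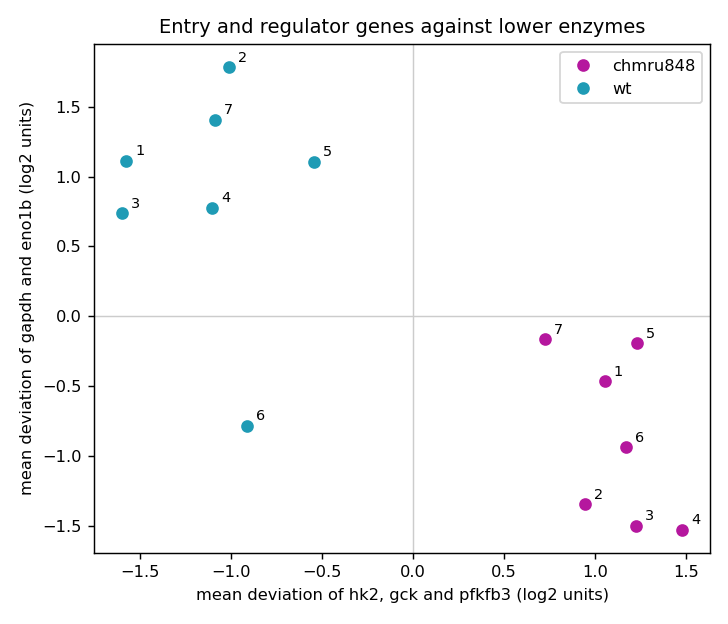
Mean deviation of *hk2*, *gck* and *pfkfb3* (x axis) against mean deviation of *gapdh* and *eno1b* (y axis) from their means over 14 retinas, in log2 units, with 1 point per retina and its replicate number. The chmru848 retinas lie at 0.72 to 1.48 on the x axis and the wt retinas at -1.60 to -0.55. On the y axis wt replicate 6 is the only wt retina below 0. The gene *aldoca*, which went the other way from *gapdh* and *eno1b*, is in neither mean.

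Co-variation between retinas of one genotype did not choose the genes and was tested. For the 15 pairs in each genotype, 30 relations in all, 0 passed an adjusted p of 0.05 by exact permutation of Pearson's r and 0 by exact permutation of Spearman's rho (lowest adjusted p = 0.835 and 0.919), and 0 had an unadjusted p under 0.05 by either. In chmru848 retinas r was -0.55 to 0.43, with 6 positive and 9 negative pairs, and in wt retinas -0.54 to 0.66, with 7 positive and 8 negative pairs. The sign was the same in both genotypes for 8 of 15 pairs.

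Pairs within the same part of the pathway were looked at singly. *hk2* and *pfkfb3*, both of the upper pathway, had r = 0.34 and rho = 0.29 in chmru848 retinas (exact permutation p = 0.473 and 0.556, adjusted p = 0.835 and 0.919), and r = -0.67 without the 2 retinas farthest from the *hk2* median. In wt retinas the pair had r = 0.58 and rho = 0.54 (exact permutation p = 0.175 and 0.236, adjusted p = 0.835 and 0.919), and r = 0.17 without 2 retinas. Its sign thus turned in chmru848 retinas when 2 retinas were left out. The hexokinases *hk2* and *gck* had r = -0.39 and rho = -0.61 in chmru848 retinas (exact permutation p = 0.372 and 0.167, adjusted p = 0.835 and 0.919), and r = 0.27 without 2 retinas. In wt retinas they had r = 0.22 and rho = 0.23 (exact permutation p = 0.632 and 0.613, adjusted p = 0.835 and 0.919), and r = 0.31 without 2 retinas. The signs of the hexokinase pair differed between the genotypes in the full groups. For the lower enzymes *gapdh* and *eno1b*, r was 0.38 and rho 0.18 in chmru848 retinas (exact permutation p = 0.397 and 0.713, adjusted p = 0.835 and 0.919), and r was 0.40 without 2 retinas. In wt retinas r was 0.51 and rho 0.54 (exact permutation p = 0.256 and 0.236, adjusted p = 0.835 and 0.919), and r was -0.32 without 2 retinas, so the sign held in chmru848 retinas only. The pair with the largest Pearson r was *aldoca* with *gapdh* in wt retinas, with r = 0.66 and rho = 0.43 (exact permutation p = 0.102 and 0.354, adjusted p = 0.835 and 0.919) and r = 0.52 without 2 retinas. In chmru848 retinas that pair had r = -0.18. By rho other pairs stood further from 0, such as *pfkfb3* with *aldoca* in chmru848 retinas (-0.68) and *pfkfb3* with *eno1b* in wt retinas (0.68), each with an exact permutation p of 0.110 and an adjusted p of 0.919. No shared rank order of the 6 genes was detected, and with 7 retinas per genotype all but strong relations can be missed.

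**Figure D3:**
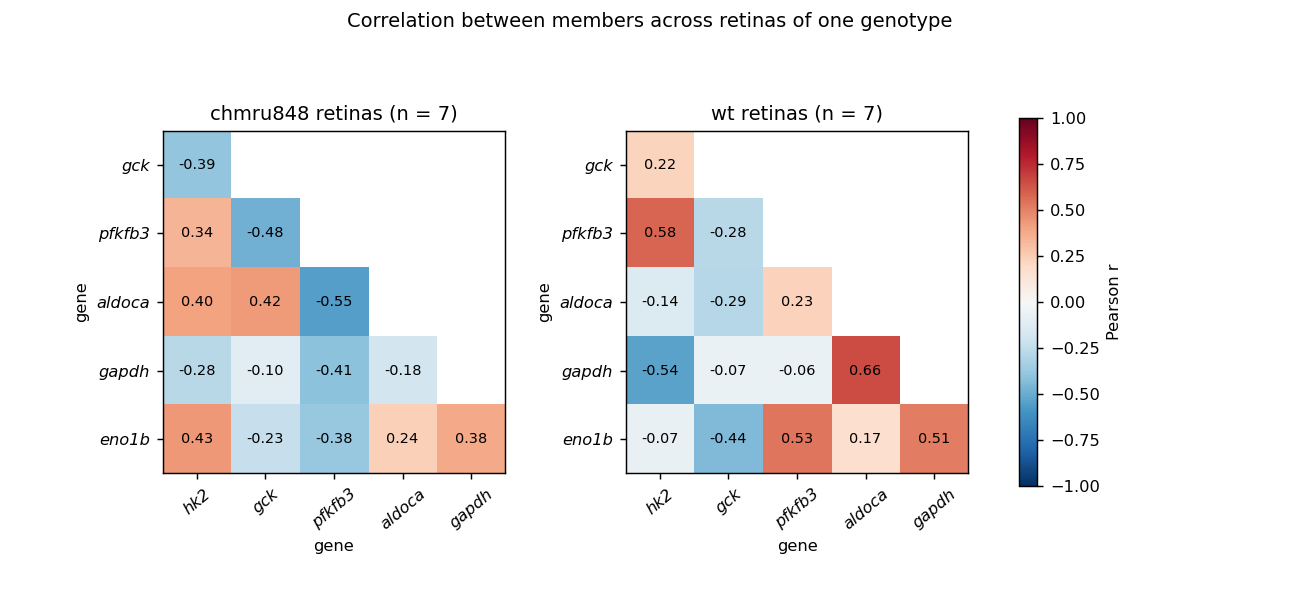
Pearson r for each pair of the 6 genes across the 7 chmru848 retinas (left) and the 7 wt retinas (right), written in each cell and shown by colour from -1 to 1. The values run from -0.55 to 0.43 in chmru848 retinas and from -0.54 to 0.66 in wt retinas, and 8 of 15 pairs have the same sign in both.

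The 6 genes were also set against the number of genes at 0 and the estimated depth of each library, 24 relations within genotypes. By Pearson's r 0 passed after adjustment (lowest adjusted p = 0.260, exact permutation) and 3 had an unadjusted p under 0.05, and by Spearman's rho 0 did either way. These 3 concern *aldoca* and *eno1b*. *aldoca* against genes at 0 gave a negative relation in chmru848 retinas (r = -0.82, rho = -0.68, exact permutation p = 0.0137 and 0.110, adjusted p = 0.260 and 0.593), and r was -0.73 without the 2 farthest retinas. In wt retinas *aldoca* had the opposite sign (r = 0.82, rho = 0.57, exact permutation p = 0.0325 and 0.20, adjusted p = 0.260 and 0.593), and r was 0.79 without 2 retinas. *eno1b* against depth gave a positive one in chmru848 retinas (r = 0.82, rho = 0.57, exact permutation p = 0.0246 and 0.20, adjusted p = 0.260 and 0.593), but r was 0.26 without 2 retinas. The part of library quality in the values of *aldoca* and *eno1b* was not tested beyond this.

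The spread within a genotype did not pass for any of the 6 genes (0 with adjusted and 0 with unadjusted p under 0.05, exact permutation). On the deposited log2 scale the mean absolute deviation of *pfkfb3* was 0.44 in both genotypes, and that of *gck* was 0.37 in chmru848 retinas and 0.38 in wt retinas. For *gck* this depends on the scale, since the chmru848 value minus the wt value was -0.01 as deposited and -0.74 on log2(normalized count + 1). For *hk2* it was -0.12 as deposited and as low as -0.62 over the alternatives, but not below -0.19 with 1 retina left out. *eno1b* had 0.55 in chmru848 retinas and 0.81 in wt retinas, but the difference of -0.25 turned to 0.15 without wt replicate 6, and *gapdh* 0.60 in chmru848 retinas and 0.41 in wt retinas.

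The genes most like each member were then looked up, by Pearson's r of deviations from the genotype means over 14 retinas, as a description. The points share libraries, and the named genes are the highest of 18872 genes with a symbol, which by itself selects high values. For *eno1b* they were OPN1SW (ENSDARG00000045677), a short-wave cone opsin, with r = 0.96, RGS9BP (ENSDARG00000086756), which anchors the regulator of transducin in photoreceptors, with r = 0.94, and *gnb3b*, a cone transducin subunit, with r = 0.94. Among its 10 nearest genes, looked at after their values were seen, were also *opn1lw2*, a long-wave cone opsin (r = 0.92), GNAT2 (ENSDARG00000042529), the cone transducin alpha subunit (r = 0.93), and ARR3 (ENSDARG00000098475), a cone arrestin (r = 0.91). The rest of the 10 were *dync1i2b* (r = 0.93), *sat2b* (r = 0.92), *zgc:153441* (r = 0.92) and CLIC1 (ENSDARG00000103340, r = 0.91). Of 19750 other genes, those with r of at least 0.8 numbered 120 for *eno1b*, 34 for *aldoca*, 32 for *pfkfb3*, 13 for *gck*, 8 for *gapdh* and 7 for *hk2*. Without wt replicate 6 they numbered 96 for *eno1b*, 56 for *aldoca* and 92 for *pfkfb3*, so the lead of *eno1b* over *pfkfb3* rests largely on that retina.

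The wt retina that was low in *eno1b* was low in these genes too. They were picked by likeness to *eno1b* over all 14 retinas, this one among them, so their low values there are not a separate observation. OPN1SW had 185781 normalized counts in wt replicate 6 and 880626 to 2163010 in the other wt retinas. The 6 matched cone markers of 7 had a summed level of 171790 in that retina, the lowest of the wt retinas. That retina was also the lowest wt retina in summed rod (29472), RPE (10869) and liver markers (111), but not in the other marker lists. Over all retinas the cone sum was 97088 to 367626 (median 141231) in chmru848 retinas and 171790 to 1419190 (median 904282) in wt retinas. Most of the wt sum was *opn1mw1*, with 36319 ± 36850 normalized counts in chmru848 retinas and 684000 ± 334020 in wt retinas. Of the cone markers 1 was higher (ARR3, difference 1.56), 3 were lower and none was at 0 in all retinas of a genotype. The other ARR3 gene (ENSDARG00000056511, 1.20, adjusted p = 0.0504, limma) and PDE6C (0.22, adjusted p = 0.628, limma) also had positive differences, so the 6 matched markers did not move together. The symbol left unmatched was *opn1sw1*, and the sum holds neither OPN1SW nor *opn1lw2* nor *gnb3b*. These were all lower (-3.39, -3.35 and -2.45, adjusted p = 4.07e-05, 0.00019 and 0.000106, limma). OPN1SW had 115233 ± 60804 normalized counts in chmru848 retinas and 1319570 ± 660463 in wt retinas, more than *opn1mw1*. Over all genes 19.9% were higher and 23.7% lower. Likeness of *eno1b* to OPN1SW was r = 0.87 within chmru848 retinas and 0.99 within wt retinas, and 0.89 over the 13 retinas without wt replicate 6. In these 13 retinas 3 of the 10 nearest genes stayed among the 10 nearest, OPN1SW, RGS9BP and *dync1i2b*. The cone genes *opn1lw2*, GNAT2, ARR3 and *gnb3b* fell to ranks 22, 35, 58 and 68, and CLIC1, *sat2b* and *zgc:153441* to ranks 14, 127 and 221. The nearest gene in the 13 retinas was GOT1 (ENSDARG00000039093), an aspartate aminotransferase, with r = 0.94. The part of cone number in the values of *eno1b* was not tested.

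**Figure D4:**
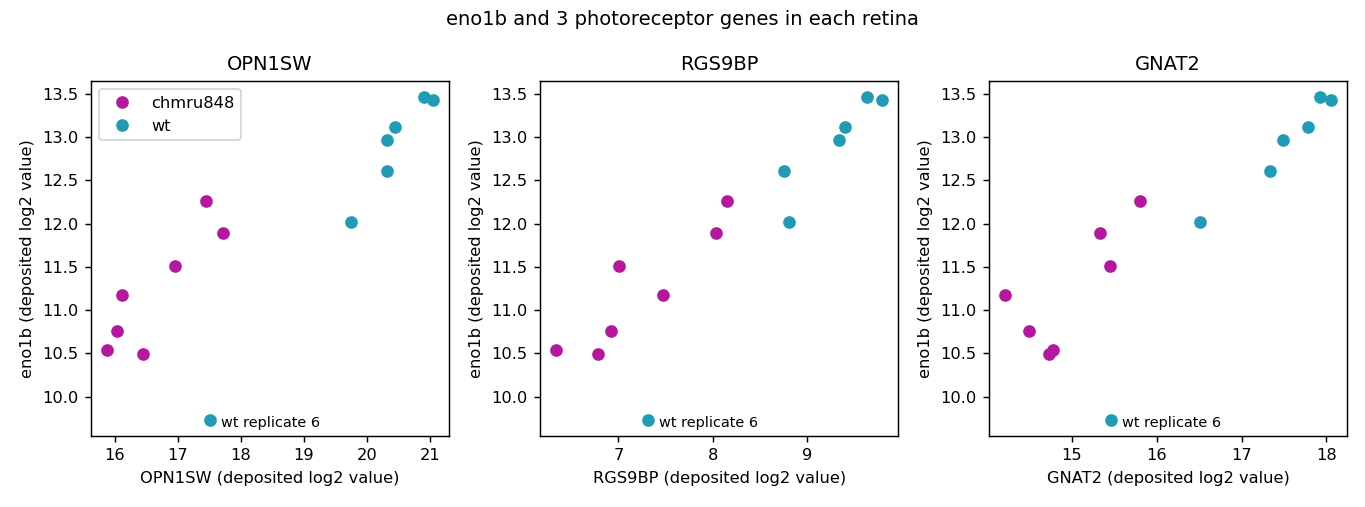
Deposited log2 value of *eno1b* (y axis) against those of OPN1SW, RGS9BP and GNAT2 (x axes) in each of 7 chmru848 and 7 wt retinas, with 1 point per retina. Within each genotype retinas high in *eno1b* were high in these genes (r = 0.77 to 0.90 in chmru848 retinas, 0.98 to 0.99 in wt retinas). The r of deviations was 0.93 to 0.96 over 14 retinas and 0.85 to 0.90 over the 13 without wt replicate 6, which lies apart from the other wt retinas in all 3 panels.

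For *hk2* the nearest genes were ADRA1B (ENSDARG00000011317), an adrenergic receptor, GPR180 (ENSDARG00000099851) and *ncoa4*, a ferritin receptor for autophagy, with r = 0.83, 0.83 and 0.82. For *gck* they were MFSD3 (ENSDARG00000093253), *strip2* and SAMD12 (ENSDARG00000115661), with r = 0.90, 0.84 and 0.84. EPN2 (ENSDARG00000008377), an endocytic adaptor, was nearest to *pfkfb3* (r = 0.93), and it had 1172 ± 353 normalized counts in chmru848 retinas and 413 ± 158 in wt retinas. *rgl2* and ADAMTS14 (ENSDARG00000078494) followed with r = 0.92 and 0.90. For *aldoca* the nearest were *ipo13a*, an importin, FZD4 (ENSDARG00000104117), a Wnt receptor, and *gb:ai877918* (ENSDARG00000100179), with r = 0.90, 0.89 and 0.88, but within wt retinas alone these were 0.63, 0.53 and 0.44. For *gapdh* they were SOX3 (ENSDARG00000053569), a transcription factor of neural progenitors, *bub1*, a kinase of the mitotic checkpoint, and MTMR9 (ENSDARG00000015860), with r = 0.87, 0.86 and 0.84.

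The rest of glycolysis was measured with a list of 42 symbols, of which 40 were matched to a gene. Of the 34 genes other than the 6 described, 1 was higher (2.94%), 14 were lower (41.2%) and 19 did not pass the threshold (limma), against 19.9% higher and 23.7% lower over all genes. Their median difference was -0.66 on the deposited log2 scale, and 29 of 34 differences were negative, where the median of all genes tested was itself below 0 (-0.06). The 1 higher gene was HK1, of the same step as *hk2* and *gck*. The genotypes did not overlap in 3 of the 34 genes, all with chmru848 retinas below, and in 0 with chmru848 retinas above. Over all genes these shares were 7.98% below and 7.57% above, so 3 of 34 below lies near the share of all genes.

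Those 3 genes were PFKM (ENSDARG00000060797), PFKL (ENSDARG00000099755) and PGAM2 (ENSDARG00000057571). PFKM, a phosphofructokinase and so a target of the *pfkfb3* product, had a lowest value of 0, a median of 0 and a highest value of 26.6 normalized counts in chmru848 retinas, against 80.3, 147 and 548 in wt retinas (difference -3.02, SE 0.38, adjusted p = 6.95e-06, limma). It was at 0 in 4 retinas of chmru848, the genotype in which *pfkfb3* was high. PFKL had 221 ± 87.0 normalized counts in chmru848 retinas and 610.0 ± 51.7 in wt retinas (difference -1.38, adjusted p = 1.75e-05, limma). PGAM2, a phosphoglycerate mutase, had 6.11 ± 7.51 normalized counts in chmru848 retinas and 36.0 ± 10.1 in wt retinas (difference -1.22, adjusted p = 0.000403, limma). The other PFKM, PFKL and both PFKP genes did not pass the threshold, with differences of -0.77 to -0.03. Both PFKP genes had higher mean counts than PFKM (ENSDARG00000060797) in each genotype. ENSDARG00000012801 had 567 ± 211 normalized counts in chmru848 retinas and 565 ± 167 in wt retinas, and ENSDARG00000028000 had 340 ± 92.0 and 680 ± 315 (SD, n = 7 each).

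Lower genes were found at the steps of both isomerases, phosphofructokinase, aldolase, GAPDH, phosphoglycerate mutase, enolase, pyruvate kinase and lactate dehydrogenase. Phosphoglycerate kinase was not analysed here. Of the phosphoglycerate mutases only the weakly expressed PGAM2 was lower. The more highly expressed *pgam1a* had 1132 ± 473 normalized counts in chmru848 retinas and 1860 ± 770 in wt retinas, and *pgam1b* had 1126 ± 496 and 1403 ± 509. Neither passed (-0.66 and -0.34, adjusted p = 0.0991 and 0.325, limma). GPI (ENSDARG00000012987) was at -0.92 on the deposited log2 scale (adjusted p = 0.00254, limma). Its paralog ENSDARG00000103826 had 0.67 and did not pass (adjusted p = 0.111, limma). That paralog was called as higher in 5 of 25 alternatives, such as without chmru848 replicate 1 and with the number of genes at 0 as a covariate. Both TPI1 genes, ENSDARG00000025012 and ENSDARG00000040988, which act between *aldoca* and *gapdh*, were lower by similar amounts (-1.49 and -1.43, adjusted p = 0.000162 and 0.000454, limma). Among aldolases beside *aldoca*, ALDOC was lower (above), and both ALDOA genes did not pass. Among enolases beside *eno1b*, *eno2*, the neuronal form, was lower (-0.67, adjusted p = 0.0190, limma), and ENO3 (-0.73, adjusted p = 0.0964) and ENO4 (0.13, adjusted p = 0.686) did not pass. At the end of the pathway PKLR (-1.19), PKM (ENSDARG00000099730, -1.004), LDHA (-0.67) and LDHB (-0.99) were lower (adjusted p = 0.00309, 0.00340, 0.0303 and 0.00600, limma), and *ldhbb* (-0.04) was not. The weakly expressed second PKM gene (ENSDARG00000099860, -0.69, adjusted p = 0.0933, limma) did not pass.

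Of the 14 lower genes, 9 were called in each of the alternatives run. The other 5 were GAPDHS (above), LDHA, *eno2*, ALDOC and LDHB. LDHA lost its call in 9 of 26 alternatives, 6 of them with 1 retina left out (chmru848 replicates 1, 3 and 4 and wt replicates 5, 6 and 7). ALDOC, LDHB and HK1 lost theirs when the number of genes at 0 was a covariate (adjusted p = 0.111, 0.0909 and 0.0823, limma), and *eno2* lost it without chmru848 replicate 1 and wt replicate 6 together (adjusted p = 0.0521, limma).

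Glucose transporters, and pathways that share glucose 6-phosphate with the hexokinases, were counted in the same way. Of 20 matched genes of glycogen metabolism 16 were lower and none was higher, with all 20 differences negative and a median of -0.99. Of 10 pentose phosphate genes 6 were higher and 1 was lower, with a median of 0.70. Of 4 glucose transporter genes 1 was higher and 2 were lower. Over all genes 19.9% were higher and 23.7% lower, with a median difference of -0.06. The 25% of transporter genes that were higher lies near the share of all genes that were higher. The lists were chosen with earlier results of these data known, so their counts are a description beside those of the 6 genes.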

How the data were processed

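RNAseq of 14 retinas (7 chmru848, 7 wt) was used. The authors trimmed reads with Trim Galore 0.6.7, aligned them with STAR 2.7.10a to GRCz11, counted them with RSEM 1.3.3 and normalised the counts with DESeq2 1.38.3. The deposited table gives, for each gene in each retina, a log2 value that the authors obtained by variance stabilization of these counts. Such values are not counts, so limma 3.58.1 (R 4.3.3) was used with a variance trend. A gene was tested if 7 or more of 14 retinas exceeded the lowest value, which kept 19751 genes and left out 108, and p-values were adjusted over all of these (Benjamini-Hochberg). Normalized counts were obtained by undoing the transformation, checked against 250 base means listed in the study's tables. To estimate depth, a range of steps was tried in the low counts of each retina. The step with the largest share of values at whole multiples of it was taken as 1 read. Intervals and floors cover counting error only. Only 54.3% to 66.5% of the values within 5 steps were whole multiples (tolerance 5%), as RSEM splits reads, so no count test was run.

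Groups came from the genotype labels. The members and gene lists were chosen with earlier results of these data known. Symbols came from a table of Ensembl identifiers, which named 18974 genes, matched without regard to case or a last paralog letter, a rule set after the table was seen. Names in capitals are given as in that table. The genes named include the 6 members, the glycolysis list, the 3 genes most like each member and the 10 most like *eno1b*. A gene of the glycolysis list is counted but not reported here by name. Correlations and spread used exact two-sided permutation tests (scipy 1.17.1), exact in that all arrangements were counted, with the zebrafish as the unit. Those of correlations test the association of 2 measures across the retinas of a genotype. Those of spread permute deviations from the median of each group, itself estimated, so their p-values are approximate. The lists of neighbouring pathways and cell markers are given as counts. Of RPE markers 4 of 8 genes were lower (summed level 1400 to 29379 normalized counts in chmru848 retinas and 10869 to 29385 in wt retinas), of Müller glia markers 1 of 6 was higher and 2 were lower, of lens markers 2 of 4 were lower, of skeletal muscle markers 1 of 3 was higher, and the erythrocyte marker did not pass, where 19.9% of all genes were higher and 23.7% lower. Alternatives changed the filter, the moderation, sample weights, centring, quantile normalization, the replicate block, each retina left out, the rank-sum test and the scale. Scripts were tested on simulated data. No coordinates or sequences were used here.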

Additional observations from a re-analysis of the deposited data

Results flagged for a closer look

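*eno1b* in wt replicate 6 had 810.377 normalized counts, far below the other 6 wt retinas (4101 to 11234), and its gap to the nearest of them was 0.612 of the range of the group on the deposited log2 scale, above Dixon's critical value for 7 retinas. It was the only such retina in 12 groups of 7 (6 genes in 2 genotypes), and chance flags about 1 in 20 groups. The same retina had the lowest summed levels of cone, rod, RPE and liver markers among wt retinas.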

How the results depend on the processing

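The differences of the 6 genes kept their sign under each of the 21 alternatives run for them. As a log2 ratio of the group means of normalized counts (0.5 was added to each mean), *hk2* was at 2.50, *gck* at 3.76 and *aldoca* at 3.14. The deposited scale compresses low values, and a ratio of means gives high retinas more weight than a mean of log2 values does. With 1 retina left out, the difference was 1.53 to 1.83 for *hk2*, 1.79 to 1.99 for *gck*, 2.92 to 3.27 for *pfkfb3*, 1.46 to 2.31 for *aldoca*, -2.39 to -2.07 for *gapdh* and -1.70 to -1.08 for *eno1b*. The 34 other genes of the glycolysis list had 1 higher and 14 lower genes, and 1 to 2 higher and 11 to 18 lower genes over 26 alternatives (1 to 2 and 12 to 16 with 1 retina left out). With sample weights, with quantile normalization, without chmru848 replicate 1, and without this retina and wt replicate 6 together, 2 were higher. With the covariate for genes at 0 the 1 higher gene was GPI (ENSDARG00000103826) and not HK1. Over all genes, 3132 to 4521 were higher and 3371 to 5401 lower. No pair of members passed in any of the 10 alternatives per genotype. Replicate numbers of both genotypes did not pair the retinas (correlation of same-numbered retinas -0.08 to 0.28, best with its own number for 1 of 7), and the replicate block gave 4036 higher and 4791 lower genes over the table, 1 and 16 among these 34 genes, and the same differences of the 6 genes. Alternatives chosen after seeing the data were a limma fit to log2(normalized count + 1), the covariate for genes at 0, leaving out chmru848 replicate 1 and wt replicate 6 together, the alternatives of the glycolysis list, and the likeness of *eno1b* without wt replicate 6. With 7 retinas a genotype and depths of 14.3 to 29.4 M reads, *gck* in wt retinas lay at the limit of detection.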
